A study of Mus musculus with 12 samples.

Results

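Ephrins and their Eph receptors, semaphorins and plexins, slits and robos, and netrins and their Unc5 receptors are the classical families of axon guidance cues and receptors. They were followed here in mouse embryonic stem cells (ESCs) and in the embryoid bodies (EBs) formed from them. The genes were chosen by symbol alone, through 8 symbol patterns, and no measured value entered the choice. Of 66 symbols under these patterns, 65 were matched to a row of the count tables, among 52636 genes in all, and Ntn3 was not analysed here. The 65 genes were 14 Eph receptors, 8 ephrins, 20 semaphorins, 9 plexins, 7 slits and robos, and 7 netrins and Unc5 receptors.

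The 12 libraries were made from E14 cells, a mouse ESC line, in 4 groups of 3. These were day 6 EBs after knockdown (KD) of circKat6b-e2, day 6 EBs of wild-type (WT) cells, KD ESCs and WT ESCs. CircKat6b-e2 is a circular RNA of the Kat6b gene, and according to the sample titles it was targeted by an shRNA. All groups came from cultures on gelatin with LIF, the MEK inhibitor PD0325901 and the GSK3 inhibitor CHIR99021, and EBs are clumps of ESCs that differentiate together into many cell types. The labels describe the replicates as biological. They leave unsaid if a control shRNA was present in WT cells and if the KD line was 1 clone or a pool, so any such difference is part of each KD value.

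Ephrins are membrane-bound ligands that signal on contact: ephrin-A proteins are held by a lipid anchor and mostly bind EphA receptor tyrosine kinases, ephrin-B proteins span the membrane and mostly bind EphB receptors, and the receptor-bearing and ligand-bearing cells often sort apart. Semaphorins signal through plexins, which act on small GTPases, and most secreted class 3 semaphorins also need a neuropilin. Slits are secreted and repel cells through Robo receptors, while netrins attract through Dcc and neogenin and repel through Unc5 receptors. In the embryo the same molecules also act outside the nervous system, on vessels, on epithelia and on migrating mesenchyme and neural crest.

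Total counts ran from 25.4 to 37.8 M per library, of which guidance genes held between 0.0798% and 0.343%. The targeted molecule itself was not measured, because circular RNA is lost in poly-T selection. Its host gene Kat6b had 71.8, 71.0 and 69.0 CPM in KD EBs, against 36.8, 36.1 and 34.6 CPM in WT EBs, a log2 fold change of 0.98 with an SE of 0.057 (adjusted p = 2.57e-15, edgeR). In ESCs Kat6b had 91.0, 84.6 and 90.9 CPM in KD ESCs, against 75.8, 56.3 and 69.0 CPM in WT ESCs, a log2 fold change of 0.41 with an SE of 0.10 (adjusted p = 0.0893, edgeR). WT ESC replicate 2 stood apart from the other ESC libraries: chi-square per gene was 55.4 and 56.0 for the replicate pairs with it, and 4.78 to 9.11 for all other replicate pairs. Pluripotency markers (9 genes such as Pou5f1 and Nanog) summed to 3768 to 3837 CPM in KD ESCs and 2977 to 3489 CPM in WT ESCs, and to 378 to 413 CPM in KD EBs and 211 to 218 CPM in WT EBs. CPM are counts scaled to a common normalised library size.

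To compare genes with each other, levels were divided by the length of each gene's exons (CPM per kb). Unc5b, a netrin receptor also known from vessels and from dependence-receptor signalling, had the highest level of all guidance genes in EBs, at 64.9 ± 1.17 in KD EBs and 53.7 ± 0.503 CPM per kb in WT EBs (mean ± SD, n = 3 here and below). It stood at 3.80 ± 0.448 in KD ESCs and 3.86 ± 0.670 CPM per kb in WT ESCs. Efna4, an ephrin-A ligand, was the highest in ESCs, at 31.8 ± 1.19 in KD ESCs and 41.4 ± 6.33 CPM per kb in WT ESCs. Its exons overlap those of another gene over 10.5% of their length, and the deposited counts name no strand option. The order of the next levels in EBs differed between KD and WT. In KD EBs they were 51.9 ± 3.88 CPM per kb for Efnb1, 32.8 ± 0.470 for Plxnb2, 32.2 ± 1.48 for Efnb3 and 28.8 ± 0.412 for Ephb4. In WT EBs the same scale gave 37.0 ± 1.21 for Plxnb2, 33.6 ± 2.07 for Efnb1, 32.9 ± 0.958 for Efna1 and 23.0 ± 1.22 for Ephb4. Efna1 did not differ from Efnb1 in WT EBs beyond their spread, and it averaged 14.2 ± 1.46 CPM per kb in KD EBs.

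**Figure D1:**
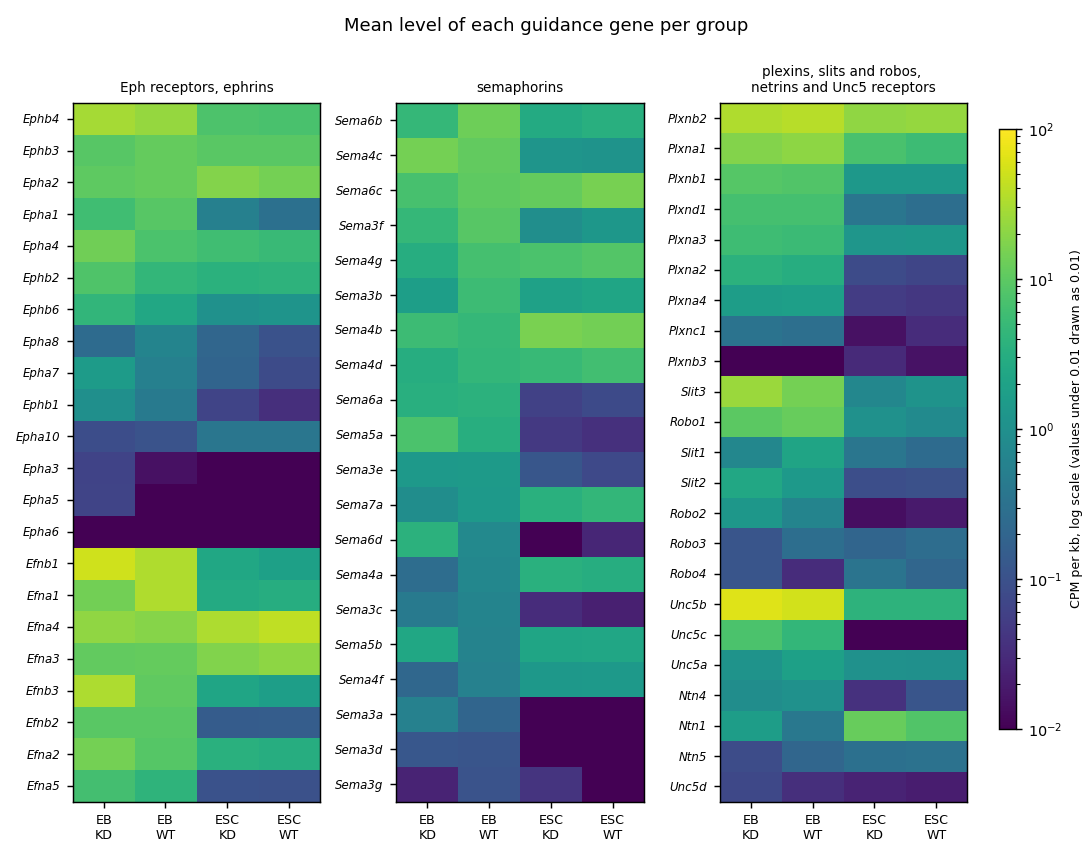
Mean level of each guidance gene in CPM per kb of exon (colour, log scale, values under 0.01 drawn as 0.01) in KD EBs, WT EBs, KD ESCs and WT ESCs, with 3 libraries per group. Unc5b is the highest in both EB groups, at 64.9 and 53.7 CPM per kb, and Efna4 in both ESC groups, at 31.9 and 41.4 CPM per kb.

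Summed over a family, every one of the 6 families except the semaphorins stood higher in each EB library than in each ESC library. Slits and robos summed to 39.4 ± 1.501 CPM per kb in KD EBs, 30.7 ± 0.451 in WT EBs, 2.80 ± 0.494 in KD ESCs and 2.78 ± 0.377 in WT ESCs. Semaphorins summed to 64.9 ± 0.965 CPM per kb in KD EBs, 78.3 ± 0.900 in WT EBs, 57.3 ± 1.20 in KD ESCs and 63.2 ± 1.64 in WT ESCs. Between the EB groups the semaphorin and plexin sums were lower in KD and the other 4 were higher. Ephrin-B genes summed to 93.6 ± 5.52 CPM per kb in KD EBs and 53.8 ± 1.77 in WT EBs. Ephrin-A genes summed to 67.5 ± 4.28 CPM per kb in KD EBs and 75.8 ± 1.44 in WT EBs. Of these Efna1 was lower in KD EBs, at 14.2 against 32.9 CPM per kb, and Efna3 was close, at 10.9 against 11.4. Efna2, Efna4 and Efna5 had higher means in KD EBs. Single genes weighed heavily in some sums: Unc5b made up 85.1% of the netrin and Unc5 sum in KD EBs and 87.1% in WT EBs. Slit3 made up 62.95% of the slit and robo sum in KD EBs and 47.45% in WT EBs. The libraries were bulk samples, in which fewer cells of a type and less RNA per cell cannot be told apart.

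**Figure D2:**
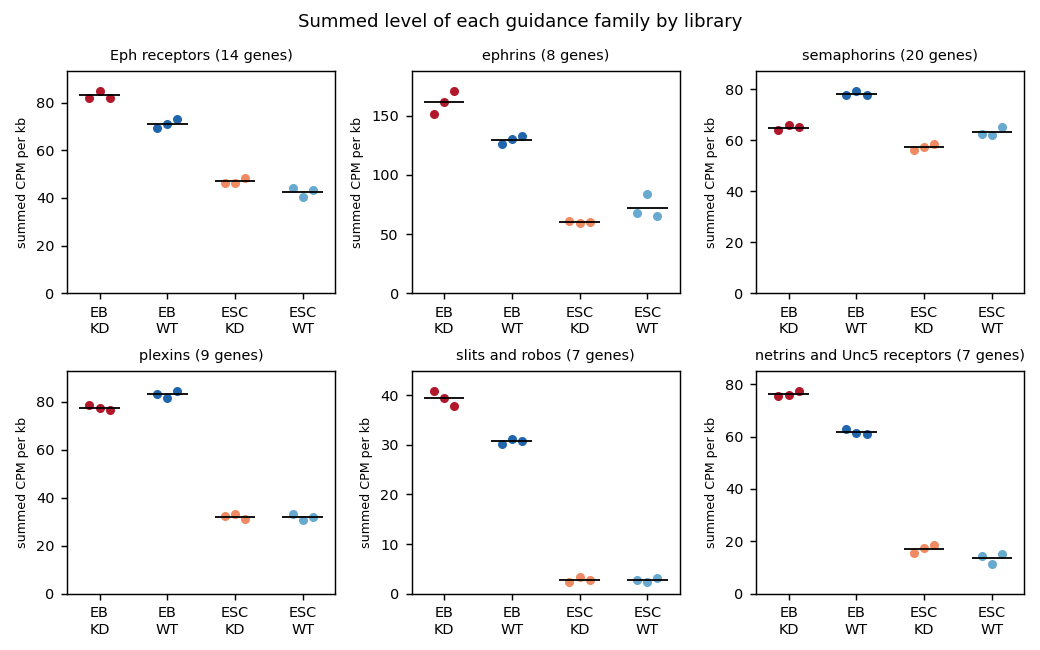
Summed level of each family in CPM per kb of exon, 1 point per library and a line at the group mean, for KD EBs, WT EBs, KD ESCs and WT ESCs. Slits and robos average 39.4 and 30.7 CPM per kb in KD and WT EBs and 2.80 and 2.78 in KD and WT ESCs, and semaphorins are lower in KD EBs, at 64.9 CPM per kb, than in WT EBs, at 78.3.

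The first comparison asks how these genes differed between KD and WT cells once the cells had differentiated. In KD EBs, 48 of the 63 tested guidance genes (76.2%) passed an adjusted p under 0.05 (edgeR's quasi-likelihood test), 25 of them higher and 23 lower. The background was high: 55.7% of all 17355 tested genes passed, 28.0% higher and 27.7% lower. With a log2 fold change of at least 1 in size as well, 10 guidance genes were higher and 11 lower (33.3% of 63), against 7.11% and 6.73% of all genes (13.8% together). Among these, Epha3 and Epha5 passed the count filter through their KD libraries and Sema3g through its WT libraries, which favoured their directions. These genes count among the 48 calls as well. The 3 KD libraries lay wholly above or wholly below the 3 WT libraries for 50 of the 63 genes (79.4%), against 61.2% of all genes. The median log2 fold change was 0.022 and the median size 0.71, against 0.0024 and 0.34 over all genes. Among ligands 13 of 34 rose and 14 fell, and among tested receptors 12 of 29 rose and 9 fell. Epha6, which had no count in any library, and Plxnb3 were too low to be tested.

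**Figure D3:**
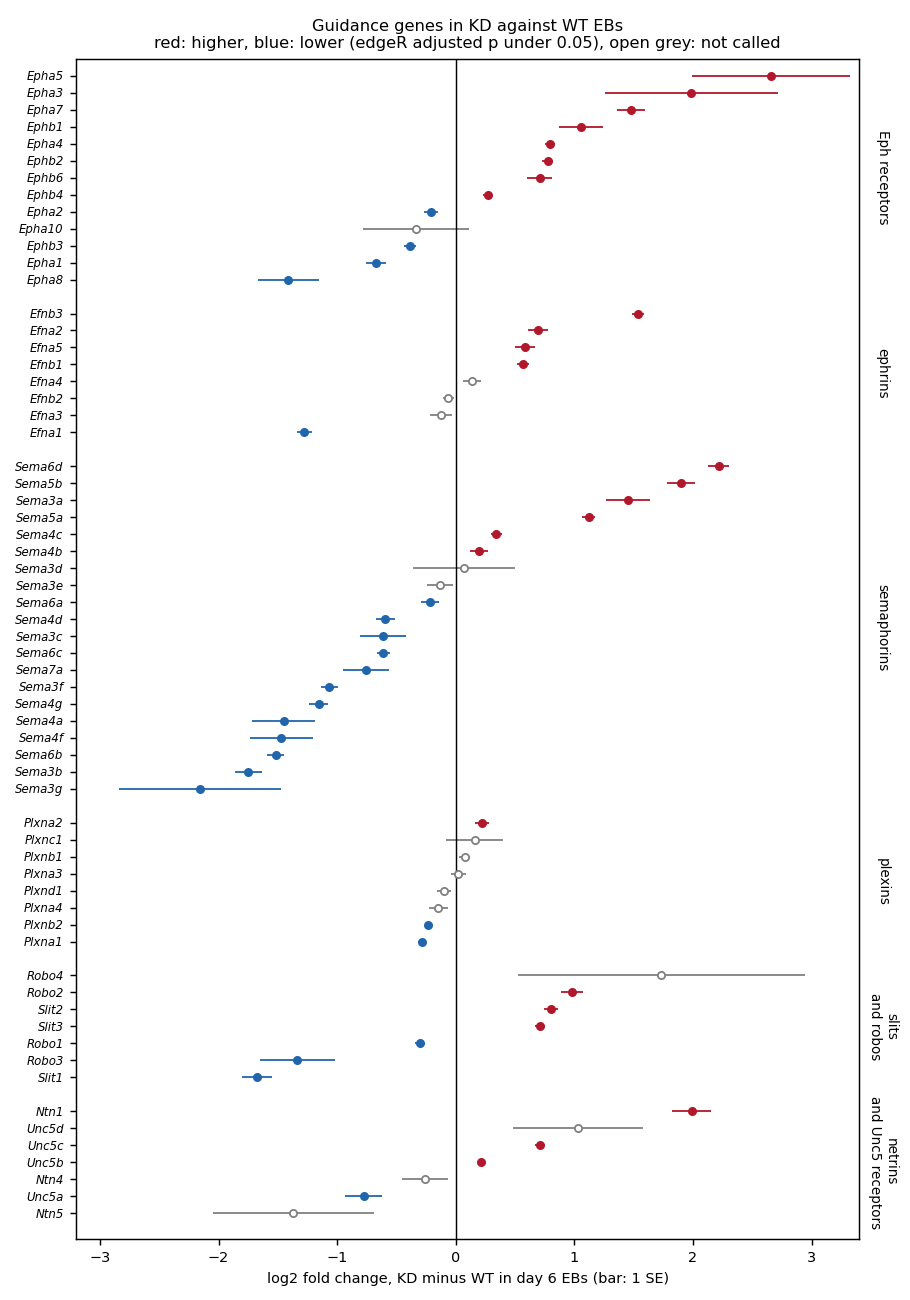
Log2 fold change of KD over WT in day 6 EBs (± 1 SE) for the 63 tested guidance genes, by family, red for genes called higher, blue for genes called lower and open grey for genes not called. Semaphorins spread from −2.16 to 2.22 on the log2 scale, and plexins lie between −0.28 and 0.22.

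Semaphorins, the largest of the families, fell more often than they rose: 12 of 20 were lower in KD EBs, 6 were higher, and Sema3d and Sema3e did not pass the test (median log2 fold change −0.60). Over all tested genes in EBs 28.0% were higher and 27.7% lower, which is the background of this and the later family counts. The classes differed in their counts. Of the 7 secreted class 3 genes 4 fell and 1 rose, of the 6 transmembrane class 4 genes 4 fell and 2 rose, both class 5 genes rose, 3 of the 4 class 6 genes fell and 1 rose, and Sema7a, the lipid-anchored member, fell. Per length, class 3 genes summed to 8.95 ± 0.460 CPM per kb in KD EBs and 17.4 ± 0.826 in WT EBs, while class 5 genes summed to 9.71 ± 0.224 in KD EBs and 3.84 ± 0.207 in WT EBs.

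The widest rise of any guidance gene at more than trace level was that of Sema6d, a transmembrane semaphorin that binds class A plexins (ENSMUSG00000027200, chromosome 2 from 124089969 to 124667770 in GRCm38). It had 45.9, 46.3 and 42.6 CPM in KD EBs, against 10.2, 8.72 and 10.1 CPM in WT EBs. The lowest KD library held more than 4 times the CPM of the highest WT library (log2 fold change 2.22, SE 0.087, adjusted p = 1.05e-19). Sema5b, a transmembrane semaphorin with thrombospondin repeats, had 18.9, 20.9 and 19.5 CPM in KD EBs, against 4.95, 5.78 and 5.12 CPM in WT EBs (log2 fold change of 1.90, SE 0.12). Its relative Sema5a had 90.4, 87.0 and 93.2 CPM in KD EBs, against 41.8, 43.7 and 39.1 CPM in WT EBs (log2 fold change of 1.12, SE 0.054). The groups did not overlap for either gene. Sema3a, the prototype secreted repellent that acts through neuropilin-1, had 9.56, 10.0 and 8.09 CPM in KD EBs, against 4.14, 3.58 and 2.42 CPM in WT EBs (log2 fold change of 1.45, SE 0.18). Its KD libraries all lay above its WT libraries, at a low level. The adjusted p of these 4 rises ran from 1.05e-19 to 6.84e-08 (edgeR). Sema4b, with Sema6c the most abundant semaphorin per length over the 12 libraries, had 34.4, 34.8 and 38.4 CPM in KD EBs, against 31.6, 32.4 and 30.1 CPM in WT EBs, a small rise (log2 fold change of 0.19, SE 0.074, adjusted p = 0.0264) that was not called without KD replicate 3 (adjusted p = 0.148) or without WT replicate 3 (adjusted p = 0.103), nor in a fit of all 12 libraries (adjusted p = 0.0577).

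Among semaphorins at more than trace level, falls were led by Sema3b and Sema6b. Sema3b, a secreted semaphorin, had 7.73, 9.13 and 11.6 CPM in KD EBs, against 29.0, 33.8 and 33.0 CPM in WT EBs (log2 fold change of −1.75, SE 0.11). Sema3f, which signals through neuropilin-2 and lies 72.3 kb from Sema3b on chromosome 9, had 28.3, 29.5 and 24.8 CPM in KD EBs, against 59.4, 60.5 and 53.0 CPM in WT EBs (log2 fold change of −1.07, SE 0.073). In both genes every KD library was lower than every WT library. Sema6b, a transmembrane semaphorin and ligand of plexin-A4, had 20.3, 22.7 and 21.1 CPM in KD EBs, against 57.5, 60.9 and 65.5 CPM in WT EBs (log2 fold change of −1.52, SE 0.071). Sema6c of the same class had 47.3, 49.4 and 44.8 CPM in KD EBs, against 73.4, 70.4 and 72.7 CPM in WT EBs (log2 fold change of −0.61, SE 0.055). Again the groups were wholly apart, by a smaller distance for Sema6c. Among class 4 genes, Sema4g had 17.8, 17.97 and 15.7 CPM in KD EBs, against 37.7, 37.8 and 39.2 CPM in WT EBs (log2 fold change of −1.16, SE 0.081). Sema4f had 1.30, 1.12 and 1.49 CPM in KD EBs, against 3.33, 4.46 and 3.11 CPM in WT EBs (log2 fold change of −1.47, SE 0.27). Sema4a, known in T cell and retinal biology, had 1.74, 2.23 and 1.00 CPM in KD EBs, against 4.14, 5.68 and 3.77 CPM in WT EBs (log2 fold change of −1.45, SE 0.26). Sema4f and Sema4a were low in all EB libraries, with no overlap between groups. Adjusted p for these 7 falls ran from 1.03e-17 to 2.62e-05 (edgeR). The other semaphorins that fell were Sema3c, Sema3g, Sema4d, Sema6a and Sema7a. Of these, Sema3c was not called without KD replicate 2, Sema3g without KD replicate 3 or WT replicate 2, and Sema6a without KD replicate 2 or WT replicate 1. The fit of all 12 libraries also lost Sema3c (adjusted p = 0.481) and Sema6a (adjusted p = 0.604). Sema4c, a ligand of plexin-B2, rose (log2 fold change of 0.34, SE 0.049).

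Promoter sequence is shown for the 2 largest rises and the 2 largest falls among genes with an absolute log2 fold change of at least 1 whose RefSeq window lies wholly before the gene, a choice made after their values were seen. RefSeq promoters (GRCm38.p6) were found for 56 of the 65 guidance genes, 72 promoters in all, and each window holds the 250 bases before the start on the gene's strand, 5′ to 3′. Core promoter motifs were searched on both strands: the TATA box as the letters TATAAA, the CAAT box as CCAAT and the GC box, known as a binding site of Sp factors, as GGGCGG. Their matches are in capitals and none overlapped. The windows lie at chr2:124089719-124089968 (plus strand) for Sema6d, chr4:28812881-28813130 (plus) for Epha7, chr17:56140344-56140593 (minus) for Sema6b and chr6:82939770-82940019 (minus) for Sema4f.
Sema6d: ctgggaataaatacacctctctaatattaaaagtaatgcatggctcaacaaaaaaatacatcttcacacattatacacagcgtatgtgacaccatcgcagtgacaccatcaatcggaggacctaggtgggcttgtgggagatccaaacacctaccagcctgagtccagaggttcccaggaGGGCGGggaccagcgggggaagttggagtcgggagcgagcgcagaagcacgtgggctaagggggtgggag
Epha7: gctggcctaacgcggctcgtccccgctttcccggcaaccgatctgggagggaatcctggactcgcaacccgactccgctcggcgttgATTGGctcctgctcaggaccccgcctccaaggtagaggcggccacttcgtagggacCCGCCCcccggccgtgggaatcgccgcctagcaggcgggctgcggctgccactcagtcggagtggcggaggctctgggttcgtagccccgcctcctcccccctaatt
Sema6b: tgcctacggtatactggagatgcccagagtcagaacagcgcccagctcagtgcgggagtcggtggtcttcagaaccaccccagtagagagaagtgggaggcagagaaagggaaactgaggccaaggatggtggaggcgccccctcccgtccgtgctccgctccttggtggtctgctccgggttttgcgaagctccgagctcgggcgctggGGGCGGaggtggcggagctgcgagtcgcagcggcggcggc
Sema4f: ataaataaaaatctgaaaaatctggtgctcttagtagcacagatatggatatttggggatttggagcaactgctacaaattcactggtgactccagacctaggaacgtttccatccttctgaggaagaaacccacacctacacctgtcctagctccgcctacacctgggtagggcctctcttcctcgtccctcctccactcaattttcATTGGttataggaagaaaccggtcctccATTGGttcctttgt
GGGCGG had 1 match in each of Sema6d, Epha7 and Sema6b, CCAAT had 1 in Epha7 and 2 in Sema4f, and TATAAA had none in these windows. Over all guidance promoters 69.4% held GGGCGG, 27.8% CCAAT and 2.78% TATAAA, against 32.7%, 33.9% and 12.4% of all 32851 promoters of the same length. Median GC content was 64.2% in guidance promoters and 52.4% in all promoters. These matches are descriptions of letters, and genes that rose and genes that fell both held them.

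Plexins, the semaphorin receptors, moved least. Of 8 tested, 1 rose, 2 fell and 5 did not pass, and all log2 fold changes lay between −0.28 and 0.22. Plxnb2, the receptor of Sema4c and the most abundant plexin per length in every group, had 274, 264 and 266 CPM in KD EBs, against 306, 313 and 325 CPM in WT EBs (log2 fold change of −0.23, SE 0.033, adjusted p = 6.00e-07). Plxna1, a receptor for class 3 and class 6 semaphorins, had 182, 190.0 and 183 CPM in KD EBs, against 233, 221 and 222 CPM in WT EBs (log2 fold change of −0.28, SE 0.036, adjusted p = 5.35e-08). All KD libraries of both were below all WT libraries, by a small margin, and the call of Plxna1 was lost in the fit of all 12 libraries (adjusted p = 0.0979). Exons of Plxna1 overlap those of other genes over 10.7% of their length, and the deposited counts name no strand option, so reads of overlapping genes cannot be told apart. The same limit holds for Ntn5 (23.4%), Efna3 (14.1%), Efna4 (10.5%) and Sema4c (7.27%). Plxna3, Plxna4, Plxnb1, Plxnc1 and Plxnd1 did not pass, and Plxna2 was the plexin that rose (log2 fold change of 0.22, SE 0.058, adjusted p = 0.00191), a call also lost in that fit (adjusted p = 0.313).

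Eph receptors rose more often than they fell. Of 13 tested, 8 were higher in KD EBs, 4 were lower and 1, Epha10, did not pass (median log2 fold change 0.71), against 28.0% higher and 27.7% lower over all genes. Epha7 had 16.4, 19.0 and 18.4 CPM in KD EBs, against 6.23, 6.07 and 7.02 CPM in WT EBs (log2 fold change of 1.48, SE 0.12). Ephb1 had 7.67, 7.13 and 8.70 CPM in KD EBs, against 4.79, 3.20 and 3.31 CPM in WT EBs (log2 fold change of 1.06, SE 0.18). No KD value of either gene fell within the WT range. Ephb2, a receptor that positions cells in the gut epithelium and guides commissural axons, had 116, 120.3 and 111 CPM in KD EBs, against 64.7, 69.9 and 68.7 CPM in WT EBs (log2 fold change of 0.77, SE 0.047). Epha4, which binds both ephrin classes, showed a rise of like size (log2 fold change of 0.80, SE 0.042). Ephb4, the receptor of ephrin-B2 that marks venous endothelium, was the most abundant Eph receptor per length in EBs and had 157, 153 and 151 CPM in KD EBs, against 124, 124 and 135 CPM in WT EBs (log2 fold change of 0.27, SE 0.041). Its groups did not overlap, although the mean difference was small. Adjusted p of these 5 rises ran from 2.05e-16 to 1.12e-05 (edgeR). The other receptors called higher were Ephb6, which lacks kinase activity (log2 fold change of 0.71, SE 0.11), and Epha3 and Epha5, which averaged 0.417 ± 0.0844 and 1.26 ± 0.561 CPM in KD EBs and 0.103 ± 0.0727 and 0.197 ± 0.261 CPM in WT EBs and had no count in ESCs. Epha3 was called in only 4 of 11 alternatives: it was lost with DESeq2, with no filter, in the fit of all 12 libraries (adjusted p = 0.0887), and without KD replicate 1, KD replicate 3, WT replicate 2 or WT replicate 3.

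The 4 receptors that fell were Epha1, Epha2, Epha8 and Ephb3. Epha1, an epithelial receptor, had 26.1, 30.6 and 23.8 CPM in KD EBs, against 44.6, 42.4 and 41.2 CPM in WT EBs (log2 fold change of −0.67, SE 0.081, adjusted p = 2.45e-08). Epha2, a receptor of ephrin-A1 found in ESCs and epithelia, had 53.3, 56.9 and 53.5 CPM in KD EBs, against 58.2, 68.4 and 62.9 CPM in WT EBs (log2 fold change of −0.21, SE 0.059, adjusted p = 0.00304). The fall of Epha1 separated the groups clearly, while that of Epha2 was small and was not called without WT replicate 2 (log2 fold change −0.16, adjusted p = 0.0521) or in a fit of all 12 libraries (adjusted p = 0.203). Epha8 had 1.61, 1.15 and 1.34 CPM in KD EBs, against 3.46, 3.58 and 3.91 CPM in WT EBs (log2 fold change of −1.41, SE 0.26, adjusted p = 2.21e-05), a low level with no overlap. Epha8 and Ephb2 lie 93.4 kb apart on chromosome 4 and moved in opposite directions. Epha1 exons overlap those of Zyx over 6.01% of their length.

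Ephrins rose in 4 of 8 cases and fell in 1. Efnb3, the ephrin-B that forms the midline barrier of the spinal cord, had 113, 117 and 123 CPM in KD EBs, against 40.9, 41.8 and 39.2 CPM in WT EBs (log2 fold change of 1.53, SE 0.049, adjusted p = 8.30e-22). Efnb1, the X-linked ephrin-B whose loss in humans causes craniofrontonasal syndrome, had 191, 206 and 219 CPM in KD EBs, against 131, 138 and 147 CPM in WT EBs (log2 fold change of 0.57, SE 0.049, adjusted p = 3.41e-09). All KD libraries exceeded all WT libraries for both, while the arterial ephrin Efnb2 averaged 74.3 ± 1.04 CPM in KD EBs and 77.8 ± 1.06 CPM in WT EBs (log2 fold change of −0.065, SE 0.046, adjusted p = 0.241). Efna1, the ligand of Epha2, moved the other way, with 30.01, 32.7 and 26.5 CPM in KD EBs, against 69.6, 73.7 and 72.6 CPM in WT EBs (log2 fold change of −1.28, SE 0.067, adjusted p = 1.61e-16). Every KD library lay far below every WT library. Its neighbours on chromosome 3 did not pass the test: Efna3 lies 32.8 kb from Efna1, and Efna4 lies 10.4 kb from Efna3. Efna4 had 37.2, 37.2 and 43.7 CPM in KD EBs, against 37.2, 33.2 and 36.9 CPM in WT EBs (log2 fold change of 0.14, SE 0.076, adjusted p = 0.128), so that its groups overlapped. The remaining rises were Efna2 (log2 fold change of 0.69, SE 0.082) and Efna5 (log2 fold change of 0.58, SE 0.084).

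Slits and robos split evenly, with 3 of 7 higher, 3 lower and Robo4 not passing. Slit3 had 182, 172 and 163 CPM in KD EBs, against 104, 111 and 102 CPM in WT EBs (log2 fold change of 0.71, SE 0.044, adjusted p = 8.20e-15). Slit2 had 79.0, 71.3 and 72.3 CPM in KD EBs, against 44.6, 40.5 and 42.7 CPM in WT EBs (log2 fold change of 0.80, SE 0.058, adjusted p = 3.55e-13). Slit1 had 5.00, 4.76 and 4.66 CPM in KD EBs, against 14.4, 16.1 and 15.6 CPM in WT EBs (log2 fold change of −1.68, SE 0.13, adjusted p = 1.80e-12). These are the secreted ligands, and each had its groups wholly apart, Slit2 and Slit3 above WT and Slit1 below. Their receptors also differed: Robo1 had 85.1, 88.0 and 81.9 CPM in KD EBs, against 102, 103 and 109 CPM in WT EBs (log2 fold change of −0.30, SE 0.045, adjusted p = 9.73e-07), whereas Robo2 averaged 24.7 ± 1.65 CPM in KD EBs and 12.6 ± 0.202 CPM in WT EBs (log2 fold change of 0.98, SE 0.092, adjusted p = 1.48e-10). Both lie on chromosome 16, 846 kb apart. The call of Robo1 was lost when all 12 libraries were fitted together (adjusted p = 0.151). Robo3, the divergent receptor of commissural axons, fell at a low level (log2 fold change of −1.34, SE 0.32, adjusted p = 0.000696).

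Among netrins and Unc5 receptors 3 of 7 rose and 1 fell. Ntn1, the prototype netrin, had 12.1, 11.1 and 12.8 CPM in KD EBs, against 3.70, 2.39 and 2.96 CPM in WT EBs (log2 fold change of 1.99, SE 0.17, adjusted p = 1.19e-11). Each KD library held more than 3 times the CPM of each WT library. Unc5b had 459, 466 and 471 CPM in KD EBs, against 406, 399.6 and 399 CPM in WT EBs (log2 fold change of 0.21, SE 0.030, adjusted p = 3.30e-07), which was small but without overlap. Unc5c averaged 164 ± 7.41 CPM in KD EBs and 100.4 ± 5.20 CPM in WT EBs (log2 fold change of 0.71, SE 0.044, adjusted p = 9.15e-15). The receptor that fell was Unc5a (log2 fold change of −0.78, SE 0.16, adjusted p = 8.62e-05), and Ntn4, Ntn5 and Unc5d, all at low levels, did not pass.

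**Figure D4:**
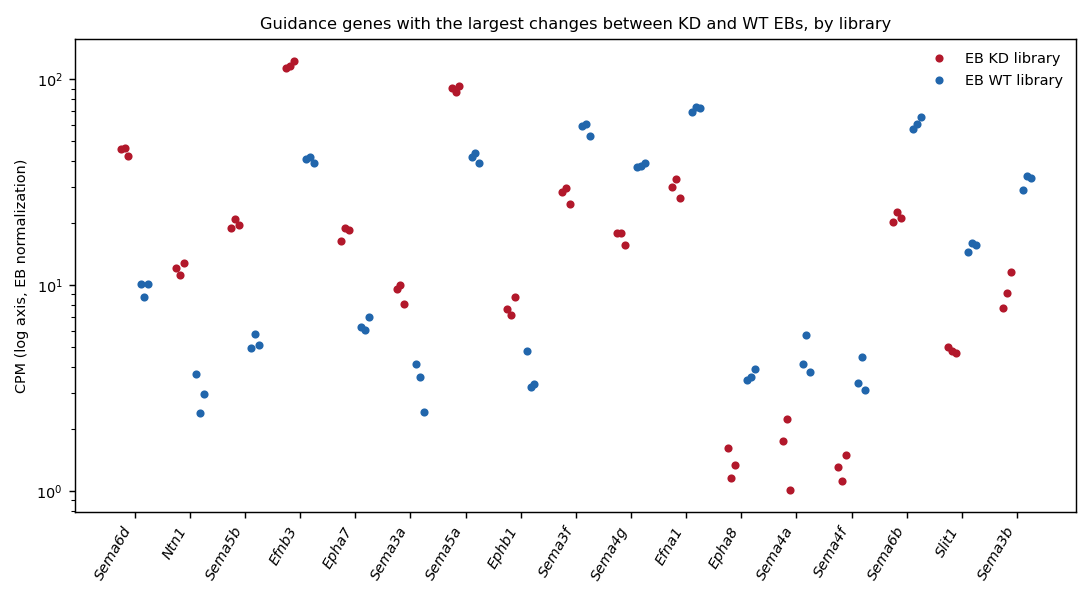
CPM in each day 6 EB library (log axis), KD left of WT, for the 17 guidance genes with an adjusted p under 0.05, an absolute log2 fold change of at least 1 and a mean log2 CPM of at least 1. The 3 KD libraries lie wholly on 1 side of the 3 WT libraries for each gene, from Sema6d (log2 fold change 2.22) to Sema3b (−1.75). The genes were chosen by their change in these same libraries, so this separation is no further support. Over all tested genes in EBs the groups were apart for 61.2%.

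Beyond the receptors themselves, 84 further genes of these pathways were listed by role, of which 81 were tested in EBs: 32 rose and 30 fell (76.5%, against 55.7% of all genes). Of the 18 tested co-receptors and further receptors 10 rose and 7 fell, of 14 further ligands and modulators 7 rose and 3 fell, and of 49 cytoplasmic effectors 15 rose and 20 fell. Nrp2, the neuropilin that binds Sema3f, had 213, 213 and 206 CPM in KD EBs, against 42.4, 39.2 and 44.3 CPM in WT EBs (log2 fold change of 2.32, SE 0.046, adjusted p = 2.77e-27). Nrp1, the Sema3a co-receptor, had 299.9, 313 and 296 CPM in KD EBs, against 227, 218 and 221 CPM in WT EBs (log2 fold change of 0.45, SE 0.034, adjusted p = 1.06e-12). Thus both neuropilins were higher in KD EBs. Neo1, which encodes the netrin receptor neogenin, had 194, 184 and 185 CPM in KD EBs, against 130.5, 135 and 130.2 CPM in WT EBs (log2 fold change of 0.51, SE 0.038, adjusted p = 7.45e-13), and the netrin receptor Dcc was too low to be tested.

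Levels of cell type markers also differed between the EB groups. Of 10 endothelial markers 9 were higher in KD and 1, Pecam1, was lower, and the list summed to 222 to 240 CPM in KD EBs and 165 to 171 CPM in WT EBs, with Emcn at 0 in WT EBs. Of 10 mesenchyme and fibroblast markers 9 were higher and none lower, with sums of 2147 to 2195 CPM in KD EBs and 695 to 702 CPM in WT EBs. All 6 epithelial markers were lower, with sums of 2501 to 2630 CPM in KD EBs and 3712 to 3826 CPM in WT EBs. Pluripotency markers were higher in 8 of 9 cases. Extraembryonic endoderm markers were higher in 4 of 7 cases and lower in 2, with sums of 622 to 644 CPM in KD EBs and 306 to 312 CPM in WT EBs. Neural markers were higher in 3 and lower in 3 of 9 tested cases, with sums of 175 to 179 CPM in KD EBs and 205 to 212 CPM in WT EBs. Neural crest markers were higher in 2 and lower in 3 of 6 cases, with sums of 125 to 129 CPM in KD EBs and 133 to 145 CPM in WT EBs. Paraxial and lateral mesoderm markers were higher in 2 and lower in 2 of 7 cases, with sums of 1006 to 1047 CPM in KD EBs and 1236 to 1266 CPM in WT EBs. Of 5 blood markers only 1 was tested, and it was lower. Blood markers summed to 0.372 to 1.25 CPM in KD EBs and 0.834 to 1.45 CPM in WT EBs. The part of these shifts in the guidance gene values was not tested.

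In undifferentiated ESCs the same comparison gave no call. None of the 50 tested guidance genes passed an adjusted p under 0.05 in edgeR, where 0.603% of 16081 tested genes did (0.168% higher and 0.435% lower), and DESeq2 called 2 (Ntn1 and Sema6c). At an unadjusted p under 0.05 edgeR gave 10 of the 50, against 21.4% of all genes, and the 3 KD and 3 WT libraries were wholly apart for 15 of 50 (30%), against 30.8% of all genes. The 15 untested genes, among them Sema6d, Robo2 and Ephb1, had too few counts in ESCs. Fitting all 12 libraries together, which shares the spread between stages, called 10 guidance genes: Epha1, Epha2, Epha7, Efnb1, Ntn1 and Plxna1 higher, and Efna4, Sema4d, Sema6c and Slit3 lower. The share of all genes called in that fit is not given here. The 0.603% belongs to the fit of ESCs alone, so it is no background for these 10.

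Ntn1 in ESCs had 57.5, 66.8 and 68.0 CPM in KD ESCs, against 44.6, 36.4 and 52.5 CPM in WT ESCs (log2 fold change of 0.53, SE 0.13, edgeR adjusted p = 0.0793). Sema6c had 62.1, 54.4 and 57.6 CPM in KD ESCs, against 69.5, 84.6 and 76.3 CPM in WT ESCs (log2 fold change of −0.40, SE 0.094, adjusted p = 0.0757). In both genes the groups were apart although neither was called, and both were called without WT replicate 2 (adjusted p = 0.000808 for Ntn1 and 0.00158 for Sema6c), the library that stood apart. Epha2 had 70.8, 70.8 and 77.0 CPM in KD ESCs, against 63.7, 51.1 and 62.4 CPM in WT ESCs (log2 fold change of 0.30, SE 0.10, adjusted p = 0.126), and it too was called without that library (adjusted p = 0.0492). Efna4 had 41.9, 45.1 and 43.9 CPM in KD ESCs, against 50.9, 66.4 and 52.0 CPM in WT ESCs (log2 fold change of −0.37, SE 0.11, adjusted p = 0.109). Slit3 had 3.39, 4.25 and 3.54 CPM in KD ESCs, against 5.51, 5.50 and 6.42 CPM in WT ESCs (log2 fold change of −0.64, SE 0.21, adjusted p = 0.132). The KD and WT libraries of these 3 genes did not overlap either.

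Whether the KD acted differently in the 2 stages was tested directly, as the KD effect in EBs minus the KD effect in ESCs in 1 fit of all 12 libraries. Of 62 tested guidance genes 24 (38.7%) differed, 11 with a higher and 13 with a lower effect in EBs, against 23.0% of 18975 tested genes, 12.8% higher and 10.2% lower. In 14 of the 24 the fitted effects had opposite signs, a share that was not counted over all genes. Choosing genes by the difference itself favours opposite signs. Of the 14, only Epha1 and Slit3 passed an adjusted p under 0.05 in both stages in this fit. By family the 24 genes were 6 of 13 Eph receptors, 4 of 8 ephrins, 7 of 19 semaphorins, 1 of 8 plexins, 5 of 7 slits and robos, and 1 of 7 netrins and Unc5 receptors. In this fit 20 of the 24 passed the threshold for the EB effect and 6 for the ESC effect. For the 5 genes with no count in ESCs (Epha3, Epha5, Unc5c, Sema3a and Sema3d) the difference carries no information.

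Among ligands, Slit3 had a KD effect of 0.77 (SE 0.077) in EBs and −0.65 (SE 0.10) in ESCs. Slit2 had an effect of 0.86 (SE 0.13) in EBs and −0.11 (SE 0.19) in ESCs. Slit1 ran the other way, with −1.62 (SE 0.27) in EBs and 0.58 (SE 0.32) in ESCs. All 3 slits thus differed between stages, and their ESC levels were low. Sema5b had an effect of 1.96 (SE 0.12) in EBs and −0.053 (SE 0.11) in ESCs: in ESCs it had 13.9, 13.2 and 14.3 CPM in KD ESCs, against 14.1, 13.9 and 14.7 CPM in WT ESCs, with overlapping groups. Sema6d gave the largest value, 2.28 (SE 0.33) in EBs and −3.06 (SE 1.41) in ESCs, but it rested on few ESC counts: it had 2 counts over the 3 KD ESC libraries, and without WT ESC replicate 2 its difference was 2.59 (adjusted p = 0.220). For Sema3b the effect was −1.69 (SE 0.15) in EBs and −0.20 (SE 0.15) in ESCs, for Sema6b −1.46 (SE 0.12) in EBs and −0.27 (SE 0.13) in ESCs, and for Sema4g −1.10 (SE 0.11) in EBs and −0.18 (SE 0.11) in ESCs.

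Receptors differed in both directions. Ephb2 had an effect of 0.83 (SE 0.063) in EBs and −0.15 (SE 0.064) in ESCs, Epha4 of 0.86 (SE 0.064) in EBs and 0.21 (SE 0.066) in ESCs, and Ephb3 of −0.33 (SE 0.066) in EBs and −0.012 (SE 0.066) in ESCs. Epha1 had an effect of −0.61 (SE 0.16) in EBs and 0.91 (SE 0.24) in ESCs, at ESC levels of 1.89 ± 0.321 CPM in KD and 1.00 ± 0.396 CPM in WT. Epha2 had an effect of −0.15 (SE 0.088) in EBs and 0.29 (SE 0.087) in ESCs. For Plxna1 it was −0.22 (SE 0.10) in EBs and 0.34 (SE 0.10) in ESCs, and for Robo1 −0.24 (SE 0.13) in EBs and 0.38 (SE 0.15) in ESCs. The fitted effects of Epha1, Epha2, Plxna1 and Robo1 were thus all below 0 in EBs and above 0 in ESCs, but only Epha1 passed for both. The EB effects of Epha2 (edgeR adjusted p = 0.203), Plxna1 (0.0979) and Robo1 (0.151) did not pass, nor did the ESC effect of Robo1 (0.1185). Ntn1 rose more in EBs than in ESCs, with an effect of 2.05 (SE 0.16) in EBs and 0.52 (SE 0.13) in ESCs. The calls of Epha2, Ephb3, Efna1, Efna2, Sema6d, Robo1 and Robo2 were lost on leaving out 1 library, and the other 17 held in all 12 such fits.

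**Figure D5:**
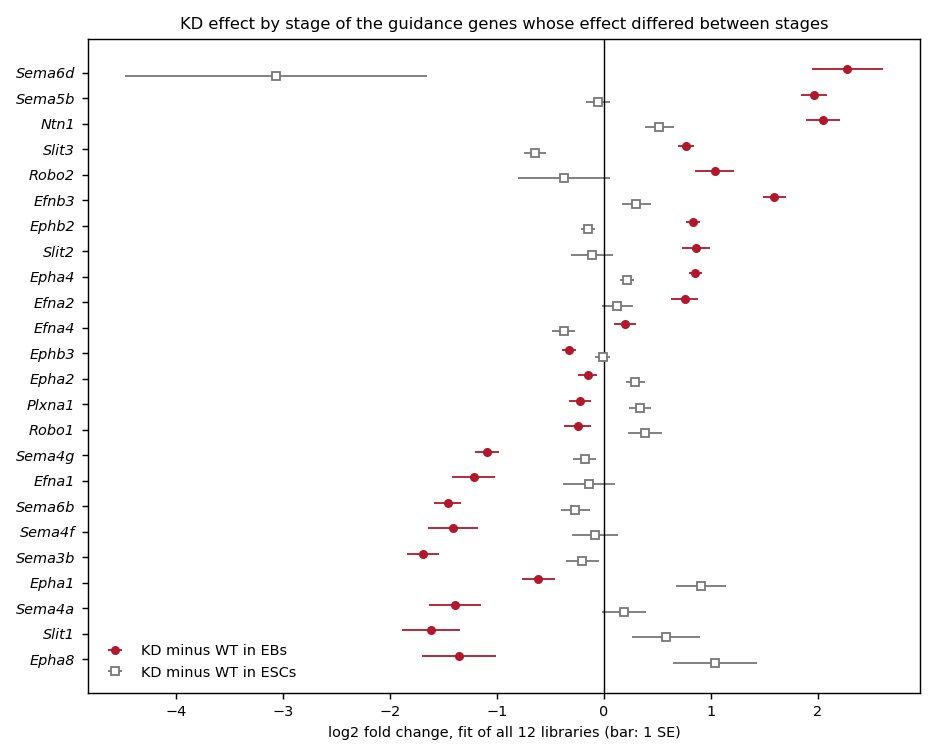
Log2 fold change of KD over WT (± 1 SE) in EBs (red) and in ESCs (open grey squares) from 1 fit of all 12 libraries, for the 24 guidance genes whose KD effect differed between stages. Slit3 lies at 0.77 in EBs and −0.65 in ESCs, and Epha1 at −0.61 in EBs and 0.91 in ESCs.

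Most guidance genes, like most genes, differed between stages. Between EBs and ESCs, 54 of 62 tested genes passed in KD cells (87.1%, 41 higher and 13 lower in EBs) and 59 of 62 in WT cells (95.2%, 45 higher and 14 lower), against 79.8% of all tested genes in either (42.5% higher and 37.3% lower in each). The median log2 fold change was 2.23 in KD cells and 2.64 in WT cells, or 2.23 and 2.35 with genes at 0 in ESCs set to a floor of 3 counts over the group. Some of the 62, among them Unc5c, Sema3a, Sema6d, Robo2 and Plxnc1, were too low to be tested in ESCs alone. They passed the filter of this fit through their EB counts, which favoured higher values in EBs. The share of such genes over all genes is not given here. All 8 tested plexins were higher in EBs in both KD and WT cells. Scaling by library size alone moved the median of all genes up by 0.37 in KD cells and 0.53 in WT cells, so values near those sizes depend on the scaling. Unc5c, a netrin receptor, had no count in ESCs. Against that floor of 3 counts it was 3563-fold higher in EBs of KD cells and 2255-fold higher in EBs of WT cells. Sema3a, also without a count in ESCs, was 199.9-fold higher in EBs of KD cells and 75.4-fold higher in EBs of WT cells against the same floor. Mates of a pair were counted singly, so 3 counts can be fewer than 3 fragments. These folds are therefore not strict lower bounds.

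Genes lower in EBs included class 4 semaphorins, Ntn1 and the ephrin-A genes Efna3 and Efna4. Ntn1 averaged 10.5 ± 0.751 CPM in KD EBs against 74.8 ± 6.74 CPM in KD ESCs, and 2.53 ± 0.553 CPM in WT EBs against 52.2 ± 9.29 CPM in WT ESCs (log2 fold change −2.84, SE 0.15, edgeR adjusted p = 3.50e-11 in KD cells and −4.36, SE 0.16, adjusted p = 8.66e-13 in WT cells). Sema4a averaged 1.45 ± 0.538 CPM in KD EBs against 19.0 ± 0.532 CPM in KD ESCs, and 3.79 ± 0.840 CPM in WT EBs against 16.6 ± 2.31 CPM in WT ESCs (log2 fold change −3.72, SE 0.24, edgeR adjusted p = 7.14e-10 in KD cells and −2.14, SE 0.22, adjusted p = 1.93e-07 in WT cells). Sema4b averaged 31.3 ± 2.03 CPM in KD EBs against 89.0 ± 0.848 CPM in KD ESCs, and 26.3 ± 0.892 CPM in WT EBs against 78.8 ± 12.5 CPM in WT ESCs (log2 fold change −1.51, SE 0.10, edgeR adjusted p = 7.29e-10 in KD cells and −1.58, SE 0.10, adjusted p = 3.94e-10 in WT cells). Each of these 3 was lower in every EB library than in every ESC library. Of the class 4 genes 5 of 6 were lower in EBs in both KD and WT cells, with Sema4c the exception, although Sema4d and Sema4g turned higher in WT cells under library size scaling (log2 fold changes 0.092 and 0.185). Epha2 was lower in EBs in both too, and likewise turned to 0.13 in WT cells under that scaling. Efna4 averaged 34.3 ± 3.42 CPM in KD EBs against 50.9 ± 1.90 CPM in KD ESCs, and 29.96 ± 1.94 CPM in WT EBs against 66.2 ± 10.1 CPM in WT ESCs (log2 fold change −0.57, SE 0.11, edgeR adjusted p = 0.000133 in KD cells and −1.14, SE 0.11, adjusted p = 5.31e-08 in WT cells). With library size scaling its value in KD cells was −0.20 (adjusted p = 0.0590), which was not called. Sema5b was lower in WT EBs than in WT ESCs but not in KD EBs against KD ESCs (log2 fold change 0.10, SE 0.11, edgeR adjusted p = 0.433 in KD cells and −1.92, SE 0.12, adjusted p = 4.09e-10 in WT cells), which is the same contrast as its difference between stages.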

How the data were processed

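RNA was measured by poly-T selected, paired sequencing of 12 libraries in 4 groups of 3. The authors deposited a table of raw gene counts for ESCs and another for EBs. HISAT2 2.1.0 with mm10, featureCounts 2.0.3 and DESeq2 1.18.1 are named in the submitters' processing notes. Genes were those of Ensembl release 90 on GRCm38, and both ends had to map, with neither strand nor pair counting set, per the file headers. Low counts were mostly even (61.7% to 68.7% of counts from 1 to 10), so mates of a pair were counted singly and counts overstate fragments. Of 52636 identifiers 52403 were matched to a symbol.

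KD and WT libraries of a stage were fitted together and tested with the quasi-likelihood F-test of edgeR (version 4.0.16, under R 4.3.3) after TMM normalization and filterByExpr (minimum count 10, minimum total 15), with robust dispersions and no covariate. The difference between stages and EBs against ESCs came from 1 fit of all 12 libraries. A call is an adjusted p under 0.05 after Benjamini-Hochberg adjustment over all tested genes. SE is the size of the log2 fold change over the root of F. CPM of KD against WT used the normalization of that stage, and CPM of EBs against ESCs and CPM per kb that of all libraries together, so a gene has 2 slightly different CPM values in a group. The depth limits genes of a few counts, and p-values cover the spread between these libraries. The fits were tested on simulated data with known changes.

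Values in every library are given for genes with an adjusted p under 0.05, an absolute log2 fold change of at least 1 and a mean log2 CPM of at least 1 in EBs, for genes called in ESCs (none), for genes called for the difference with opposite signs in the separate fits of the stages, and for the 2 highest genes per length in each family, 31 genes in all. Robo2 had opposite signs in the fit of all 12 libraries but was not tested in ESCs alone. It is therefore given as mean and SD. The members, the partner and marker lists and this rule were chosen with earlier results of these data known. Alternatives were library size scaling, DESeq2 1.42.0, no filter, a replicate block, another set of libraries in the fit, and leaving out each library.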

Additional observations from a re-analysis of the deposited data

Results flagged for a closer look

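The 24 guidance genes whose KD effect in EBs minus KD effect in ESCs passed an adjusted p under 0.05 (edgeR, 1 fit of all 12 libraries) are listed by family, with the difference on the log2 scale. Among Eph receptors it was −2.40 for Epha8 (adjusted p = 0.00374), −1.52 for Epha1 (0.00120), −0.45 for Epha2 (0.0167) and −0.32 for Ephb3 (0.0236), each with the lower effect in EBs. The effect was higher in EBs for Ephb2, by 0.98 (1.96e-06), and for Epha4, by 0.64 (0.000140). Among ephrins it was 1.29 for Efnb3 (7.85e-05), 0.63 for Efna2 (0.0284), 0.57 for Efna4 (0.0111) and −1.08 for Efna1 (0.0253).

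Among semaphorins the difference was 5.34 for Sema6d (0.0127) and 2.02 for Sema5b (6.99e-07), both higher in EBs. It was lower in EBs for Sema4a, at −1.58 (0.00219), Sema3b, at −1.49 (0.000142), Sema4f, at −1.33 (0.00689), Sema6b, at −1.20 (0.000212), and Sema4g, at −0.92 (0.000537). Plxna1 was the plexin that differed, at −0.56 (0.0106). Among slits and robos it was −2.19 for Slit1 (0.00144), 0.97 for Slit2 (0.00727), 1.42 for Slit3 (2.13e-06), −0.63 for Robo1 (0.0331) and 1.41 for Robo2 (0.0421). Ntn1 differed by 1.53 (9.62e-05). The 3 libraries of a group were too few to test single libraries as outliers.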

How the results depend on the processing

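In EBs 45 to 48 of 63 guidance genes were called on leaving out each library in turn, and 42 of the 48 were called in all 6 such fits. DESeq2 called 47 and the fit of all 12 libraries 39; no direction of a named gene changed between KD and WT EBs under any alternative tried. In ESCs the count of 0 became 2 with DESeq2, 5 with no filter, 10 with all 12 libraries in 1 fit and 1 with a replicate block, and 0 to 3 on leaving out 1 library. Shares over all genes under these alternatives are not given here. The difference between stages was called for 19 to 27 genes on leaving out 1 library, 28 with DESeq2, 25 with library size scaling and 22 with no filter. EBs against ESCs gave 52 to 55 calls in KD cells and 56 to 60 in WT cells on leaving out 1 library.

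Replicate numbers were shared by the groups, but deviations of same-numbered libraries correlated at only −0.0805 to 0.0891, so the numbers did not pair the libraries. With the replicate block 49 genes were called in EBs, 1 in ESCs (Ntn1) and 24 for the difference, and 52 in KD cells and 53 in WT cells for EBs against ESCs.

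Signs of small values turned under library size scaling, with these log2 values: KD minus WT in ESCs for Efna1 (0.0016), Plxnb2 (0.029), Sema4f (0.028), Sema5b (0.064), Slit2 (0.011) and Unc5b (0.085), EB minus ESC in WT cells for Epha2 (0.13), Sema4d (0.092) and Sema4g (0.185), EB minus ESC in KD cells for Sema3b (0.19), and the difference between stages for Sema4b (−0.075). On leaving out 1 library, KD minus WT in ESCs ran from −0.37 to 0.21 for Efna1, −0.20 to 0.016 for Sema4f, −0.20 to 0.84 for Sema5a, −0.27 to 0.13 for Slit2 and −0.14 to 0.11 for Unc5b. The difference between stages ran from −0.45 to 0.52 for Epha7, −0.23 to 0.81 for Ephb1 and −0.045 to 0.17 for Sema4b. Apart from the scaling, whose shift of all genes is given above, the cause was not tested. Depth limits the genes of a few counts in ESCs.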

Other observations

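Guidance genes that neighbour each other on a chromosome moved both together and apart in KD EBs. Neighbours here lie within 5 Mb with no other guidance gene between them, though other genes can lie there. Pairs with a gene that was not called are left out. Ntn1 and Efnb3, 1153 kb apart on chromosome 11, both rose. Sema3b and Sema3f, 72.3 kb apart on chromosome 9, both fell, as did Sema4a and Efna1, 811 kb apart on chromosome 3, and Slit1 and Sema4g, 3245 kb apart on chromosome 19. So did Sema4d and Unc5a, 3156 kb apart on chromosome 13, and Epha8 and Epha2, 4344 kb apart on chromosome 4. Robo1 and Robo2 on chromosome 16, Ephb2 and Epha8 on chromosome 4, and Ephb6 and Epha1 on chromosome 6 (738 kb apart) moved in opposite directions. No test of position was made.

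Among further genes of these pathways, Flrt2, an Unc5 ligand, averaged 59.7 CPM in KD EBs and 12.8 CPM in WT EBs (log2 fold change 2.22), and L1cam, a neural adhesion molecule that associates with neuropilin-1, fell by 1.60 on the log2 scale. Rras, a small GTPase on which plexins act, fell by 1.07, and Kdr, the VEGF receptor that also works with neuropilins, rose by 1.04. These 4 genes were picked after their values were seen.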
